A study of Mus musculus with 15 samples.

Results

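The CA3 pyramidal layer of newborn wild-type (WT) mice was profiled on 5 arrays, the whole WT group of a series of 15. All 5 were taken because their labels name the WT genotype, with no use of measured values. The other 10 arrays hold the inner and the outer CA3 layer of doublecortin knockout mice (Dcx KO) and were not compared here. The tissue was cut from the hippocampus by laser at postnatal day 0, the day of birth, and the dissected pieces were pooled into 1 RNA per brain. The RNA was amplified and biotin-labelled, and each sample was read on 1 Illumina whole-genome bead array. The series speaks of 5 WT hippocampi, and the labels give the arrays only the numbers WT 1 to WT 5. Strain, sex and litter of the WT mice are not given in the sources used here.

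In the CA3 field of the hippocampus, pyramidal neurons receive the mossy fibres of dentate granule cells and project to CA1 and to each other. Its pyramidal neurons are born before birth, migrate into the layer with the help of the microtubule cytoskeleton and reelin signalling, and are still growing axons, dendrites and synapses at birth. At this age many inhibitory synapses are immature, and glia are only starting to arise.

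Levels are normalized log2 signals after background correction, given in the order WT 1 to WT 5, and a gene is represented by the probe of highest mean. A gene was called detected on an array where fewer than 1% of the negative control entries were as bright (detection p-value under 0.01). These entries were taken as negative controls because they carry no probe and have a low signal. Signals of different probes depend on the probe as well as on the RNA, so the order of genes is an order of signals and not of RNA amounts. A tissue level of RNA also cannot tell fewer cells of a type from less RNA per cell. Of 16593 genes, 7032 (42.4%) were detected on all 5 arrays, 7507 (45.2%) on 0 arrays and 2054 (12.4%) on 1 to 4. List counts below are to be read beside these shares. Arrays had between 10574 and 11625 detected probes. Pairs of arrays correlated with Pearson's r between 0.98 and 0.99 across all probes, detected or not, and the arrays share the same normalization. Spearman's rank correlation of the same pairs was lower, between 0.85 and 0.88. With 5 arrays, each SD has limited precision.

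The reading of the profile has 3 limits. The first is that WT 1, WT 2 and WT 3 carried transcripts of other tissues. Myl1, a light chain of fast skeletal muscle myosin, had levels of 12.96, 12.22, 11.44, 5.25 and 5.79. Mylpf, another fast myosin light chain, had 11.63, 9.93, 9.43, 4.24 and 4.29, and Tnnc2, fast troponin C, had 11.62, 10.38, 9.54, 4.31 and 4.53. All 3 genes were far higher on WT 1, WT 2 and WT 3 than on WT 4 and WT 5, with no overlap. Over the 15 measured skeletal muscle genes the mean level was 9.53, 8.71, 8.09, 5.12 and 5.28. Of these genes, 10 had an SD over 1, against 131 of the 9086 genes detected on at least 1 array (1.44%). Myog, which directs the muscle programme, was detected on 0 arrays. On WT 4 and WT 5 the list was low, and 6 of the 15 genes were detected on both. That is near the share over all genes, 7324 of 16593, so the count alone does not set muscle genes apart there. Acta1, skeletal muscle actin, had 12.21, 11.59, 10.76, 6.98 and 7.43, and Myh8, the perinatal myosin heavy chain, had 12.90, 12.26, 11.28, 6.44 and 6.64. Bone, connective tissue and skin transcripts followed a second pattern. Col1a1, the main collagen chain of bone and fibroblasts, had 11.72, 5.29, 11.54, 4.39 and 6.93, and Ctsk, the osteoclast protease cathepsin K, had 10.003, 4.34, 9.38, 4.90 and 5.13. Krt14, a keratin of basal skin cells, had 9.11, 4.20, 7.08, 4.57 and 4.28. WT 1 and WT 3 were the highest arrays for these 3 genes, and Col1a1 also stood above its WT 2 and WT 4 levels on WT 5. The 12 bone and cartilage genes averaged 6.70, 4.41, 6.39, 4.45 and 4.84, the 13 keratinocyte genes 6.30, 5.21, 5.74, 5.17 and 5.15 and the 12 meningeal fibroblast markers 7.75, 5.47, 7.05, 5.05 and 5.36. WT 1 and WT 3 were the 2 highest arrays in each of these 3 lists. On WT 4 and WT 5 alone, 0 of the 12 bone genes, 2 of the 13 keratinocyte genes and 3 of the 12 meningeal markers were detected on both. Counts of the brain lists that hold affected genes are therefore also given for WT 4 and WT 5 alone, where 7324 genes were detected on both arrays and 8493 on neither.

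**Figure D1:**
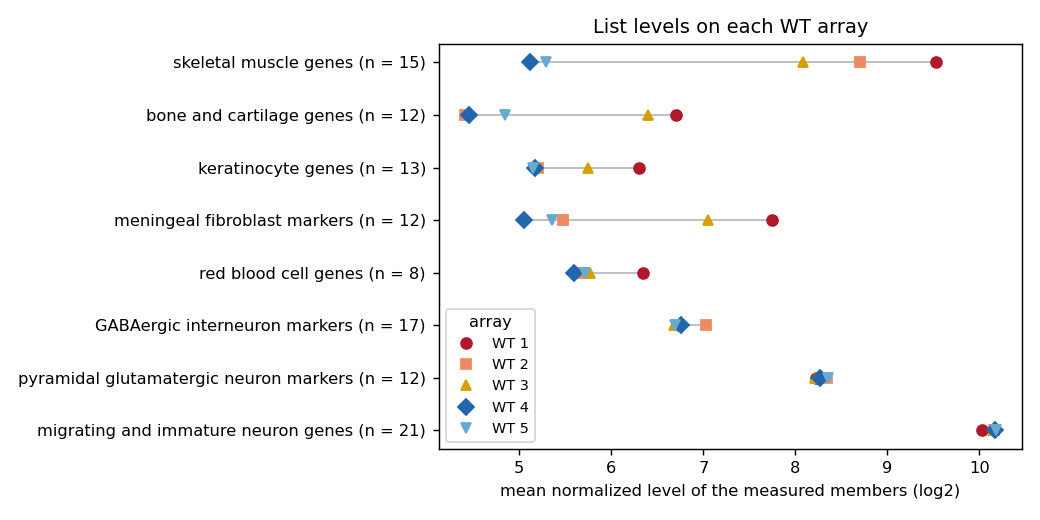
Mean normalized level (log2) of the measured members of 8 gene lists, with 1 symbol per WT array and a grey line over the range. The muscle list runs between 5.12 on WT 4 and 9.53 on WT 1, while the pyramidal neuron list stays between 8.22 and 8.35.

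The second limit is the probe. Several genes that every cell or every neuron uses lay at the level of the controls. Rplp2, a ribosomal stalk protein, had 4.20, 4.29, 4.48, 4.32 and 4.30, Hspa5, the main chaperone of the endoplasmic reticulum, had 4.43, 4.28, 4.62, 4.52 and 4.70, and Snap25, a core protein of synaptic vesicle fusion, had 4.23, 4.19, 4.34, 4.27 and 4.19. Each has 1 probe here, and each was detected on 0 arrays. A gene that was not detected is therefore only a gene whose probes gave no signal above the controls. Of the 4777 genes with several probes, 1244 had a probe detected on all 5 arrays and another detected on 0. The third limit is the control entries, of which 39 of 1118 (3.49%) passed the same threshold on at least 1 array and 0 on all 5. The threshold was set by these same entries, after 6 brighter ones were set aside. These counts are therefore no error rate of detection. Among the genes, 937 were detected on exactly 1 array.

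The 25 genes of highest signal joined ribosomal, cytoskeletal and energy genes to genes of young neurons. Rplp1, a ribosomal stalk protein, had 14.16, 14.12, 14.12, 14.09 and 14.05. Tuba1b, an alpha-tubulin, had 14.06, 14.09, 14.16, 14.02 and 14.09, and Tubb2b, the beta-tubulin of migrating and growing neurons, had 14.05, 13.94, 13.87, 14.12 and 14.06. Stmn2, a stathmin that binds tubulin in growing axons, had 13.97, 14.02, 13.98, 13.93 and 13.96, and Mapt, the microtubule-associated protein tau, had 13.93, 13.97, 14.09, 14.04 and 13.93. The 5 arrays lay within about 0.25 of each other for each of these 5 genes, and none of the arrays was always the highest. The normalization gives the arrays the same distribution of signals, which limits how far the brightest genes can differ. Hmgcs1, an enzyme of cholesterol synthesis, had 13.94, 14.16, 13.96, 14.16 and 14.16, with WT 1 and WT 3 below the other 3 arrays. Further members were the ribosomal genes Rpl38, Rpl41, Rps12 and Rps24, the beta-tubulin Tubb5, and Atp5b, Atp5g3 and Atpif1 of the mitochondrial ATP synthase. Tmsb10, which binds actin monomers, Nrep, Rtn1 of neuronal endoplasmic reticulum, Mllt11, Jpt1, Ttc3, Mtch1, Mif, the ferritin chain Fth1, the chaperone Hspa8 and the ubiquitin pseudogene entry Ubb-ps completed the set. A probe can also bind transcripts of near-identical copies, which was not tested for tubulins, ribosomal proteins and ubiquitin. Mean levels of the 25 ran between 13.67 for Mtch1 and 14.11 for Rplp1, with SDs between 0.03 and 0.13, so neighbours in the order did not differ beyond their spread. With WT 4 and WT 5 alone, 23 of the 25 stayed among the 25 highest. When the probes of a gene were averaged in place of taking the highest, 12 of the 25 stayed.

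**Figure D2:**
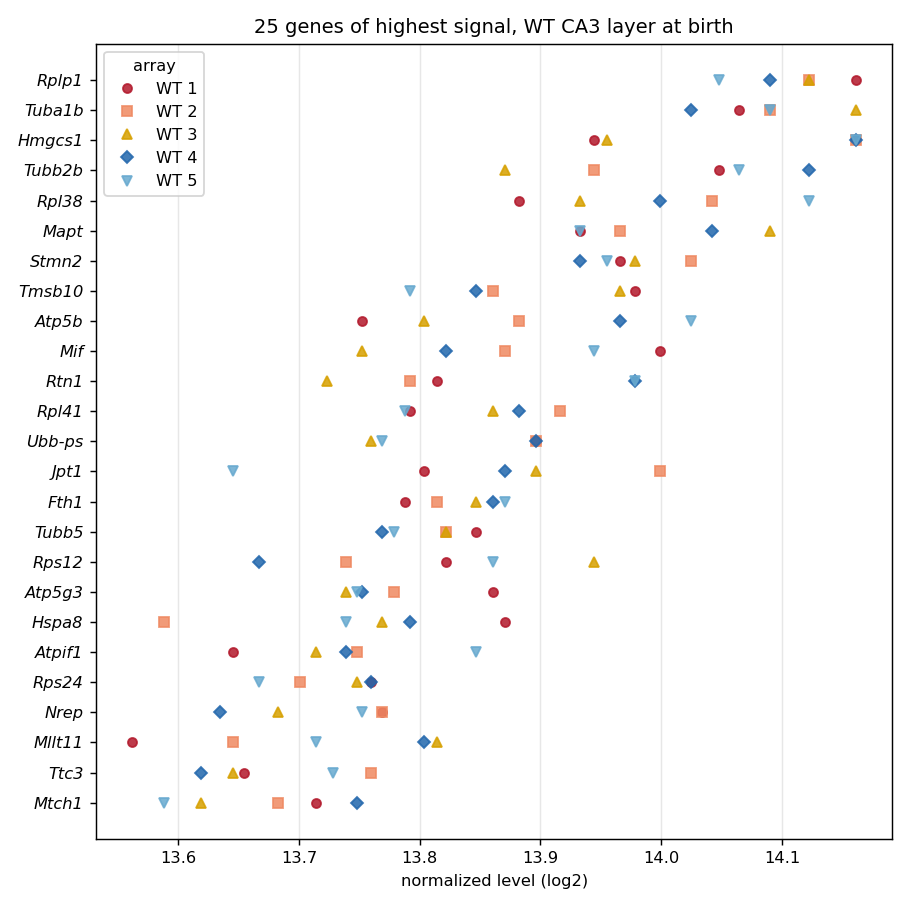
The 25 genes of highest mean signal, ordered by mean, with the normalized level (log2) on each of the 5 WT arrays as symbols. The axis covers less than 1 log2 unit, and the symbols of neighbouring genes overlap.

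Stretches of promoter are shown for genes at both ends of the profile, 3 that were bright on every array (Tuba1b, Slc17a7 and Nectin3) and 3 of muscle with a wide spread (Mylpf, Tnnc2 and Myl1). Sequences are the 100 bases before the start of the gene in RefSeq, build GRCm38.p6, given 5′ to 3′ on the strand of the gene. Capitals mark the motifs searched on both strands, which were the TATA box (TATAAA), the CCAAT box (CCAAT), the GC box (GGGCGG) and the E-box (CAGNTG). In Slc17a7 2 GC box matches near the start overlap by 1 base, and in Tnnc2 the E-box and the CCAAT box stand side by side.
Tuba1b promoter, chr15:98934391-98934490, minus strand: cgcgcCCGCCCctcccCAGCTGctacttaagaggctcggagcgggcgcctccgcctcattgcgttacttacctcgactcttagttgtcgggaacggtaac
Slc17a7 promoter, chr7:45163821-45163920, plus strand: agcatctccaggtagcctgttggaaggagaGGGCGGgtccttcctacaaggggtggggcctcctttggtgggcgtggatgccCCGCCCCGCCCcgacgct
Nectin3 promoter, chr16:46496968-46497067, minus strand: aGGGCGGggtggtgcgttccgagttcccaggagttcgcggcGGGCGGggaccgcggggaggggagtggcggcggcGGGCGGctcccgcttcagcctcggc
Mylpf promoter, chr7:127211508-127211607, plus strand: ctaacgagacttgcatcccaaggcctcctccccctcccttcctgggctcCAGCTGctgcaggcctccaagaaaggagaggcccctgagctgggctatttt
Tnnc2 promoter, chr2:164779735-164779834, minus strand: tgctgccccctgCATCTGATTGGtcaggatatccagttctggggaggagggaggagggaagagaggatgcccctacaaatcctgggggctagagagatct
Myl1 promoter, chr1:66945057-66945156, minus strand: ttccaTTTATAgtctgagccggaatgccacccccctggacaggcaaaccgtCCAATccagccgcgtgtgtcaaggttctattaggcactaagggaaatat
Over the 250 bases before the start, a GC box stood in 14 of the 18 highest genes that have a promoter in the table (77.8%), in 67.4% of the genes detected on all 5 arrays, in 31.9% of those detected on 0 and in 35.4% of all genes with a promoter. An E-box stood in 11 of 12 muscle genes (91.7%), against 48.2% of all genes. A TATA box stood in 4 of 12 muscle genes (33.3%), in 7.0% of genes detected on all 5 arrays and in 14.3% of all genes. These are counts of letters in a window and were not tested.

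The field label was set beside markers of hippocampal fields. The lists were chosen with earlier results of these data known, so the counts are a description and not a check of the label. Of 14 measured CA3 field markers, 10 (71.4%) were detected on all 5 arrays, and their median level was 7.64, against 4.71 over all genes. Elavl2, a neuronal RNA-binding protein, had 12.09, 12.17, 12.44, 12.21 and 12.46. Nectin3, a cell adhesion protein enriched in CA3, had 11.52, 11.35, 11.77, 11.51 and 11.72, and Cpne4, a calcium-binding copine, had 11.51, 11.31, 11.39, 11.42 and 11.62. These 3 genes were bright on every array, with WT 1 lowest for Elavl2 and no array far from the others. Bok, a Bcl-2 family member of CA3, averaged 9.31 ± 0.09, and Grik4, the high-affinity kainate receptor subunit of mossy fibre synapses, averaged 6.56 ± 0.11 (SD, n = 5 arrays here and below). Prkcd, Ociad2, Dkk3, Grp and Trps1 were also detected on all 5, St18 and Etv1 on 4, and Iyd and Coch on 0. On WT 4 and WT 5 alone, 12 of the 14 were detected on both.

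Of 15 measured CA1 and CA2 markers, 6 (40.0%) were detected on all 5, near the 42.4% of all genes, with a median level of 5.01. Mpped1, a phosphoesterase of developing cortex and CA1, had 9.09, 9.43, 9.46, 9.02 and 8.71, and Wfs1, a marker of CA1 pyramidal neurons, had 6.42, 7.11, 6.45, 6.61 and 6.35. Fibcd1, of the same field, had 6.72, 7.54, 6.30, 6.45 and 6.65, and Pou3f1, a POU-domain factor of CA1, had 6.03, 5.15, 5.33, 4.36 and 4.20. WT 2 was the highest array for Wfs1 and Fibcd1, and WT 1 for Pou3f1. The mean of the CA1 and CA2 list was 6.07, 5.88, 5.85, 5.68 and 5.53, and that of the CA3 list 7.63, 7.83, 7.84, 7.86 and 7.99, lowest on WT 1. Amigo2, of CA2 and CA3, averaged 8.94 ± 0.24, while Rgs14 and Pcp4, both of CA2, were detected on 0 arrays. Dcn is in this list and in the meningeal list, and had 10.12, 5.81, 8.65, 5.06 and 5.14, high on WT 1 and WT 3 as Col1a1 was. With Dcn the CA1 and CA2 mean was highest on WT 1, and over the other 14 members it was 5.78, 5.88, 5.65, 5.73 and 5.56, highest on WT 2. On WT 4 and WT 5 alone, 6 of the 15 were detected on both. Of 7 measured dentate granule neuron markers, only Igfbp5 was detected on all 5, at 10.51 ± 0.30, and that gene is also made in several other cell types. Prox1, which specifies granule neurons, was detected on 2 arrays at 4.87 ± 0.30, C1ql2 on 1, and Calb1, calbindin, on 0.

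Genes of glutamatergic pyramidal neurons were detected widely. Of 12 measured, 10 (83.3%) were detected on all 5 arrays, Neurod1 on 4 and Neurod6 on 2, with a median level of 8.70. Slc17a7, the vesicular glutamate transporter of mature forebrain neurons, had 11.18, 11.40, 10.87, 11.43 and 11.20. Slc17a6, the transporter that precedes it in many developing neurons, had 10.03, 9.49, 9.96, 9.83 and 9.90. Both were bright on each array, and the arrays lay within about 0.6 of each other. Camk2a, a kinase subunit of the postsynaptic density, averaged 10.99 ± 0.13, Nrgn, neurogranin, 9.49 ± 0.16, and Nrn1, neuritin, 9.61 ± 0.06. The transcription factors Mef2c (8.93 ± 0.16), Tbr1 (8.47 ± 0.20) and Neurod2 (7.97 ± 0.09) were detected on all 5 arrays. Neurod6, a bHLH factor of postmitotic pyramidal neurons, had 4.42, 5.17, 4.60, 4.49 and 5.28 and was detected on 2 arrays.

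Genes of early-born cortical neurons were detected in part, and 1 of them, Crym, was among the brightest of the profile. Of 13 measured subplate and early-born neuron markers, 7 (53.8%) were detected on all 5 and the median was 6.13, and 8 were detected on both WT 4 and WT 5. Crym, the thyroid hormone-binding mu-crystallin, had 12.87, 13.15, 13.11, 13.11 and 12.97. Tle4, a corepressor of deep-layer neurons, averaged 10.77 ± 0.11, Fezf2, which specifies subcortical projection neurons, 10.18 ± 0.14, and Zfpm2, a GATA cofactor, 10.18 ± 0.15. The spread between arrays was small for these 4 genes. It was wide for Bcl11b, a zinc finger factor of deep-layer neurons and also of skin and T cells, which had 8.94, 7.77, 7.25, 6.43 and 7.22, and for Ccn2, a matricellular gene of subplate, vessels and connective tissue, which had 8.16, 5.26, 6.66, 5.26 and 5.31. Both were highest on WT 1, where the keratinocyte and bone lists were also highest, and the part of those tissues in the 2 levels was not tested. Nxph4, Cplx3, Lpar1 and Foxp2 were detected on 0 arrays. Of 9 Cajal-Retzius neuron markers, Reln (8.97 ± 0.26) and Calb2 (11.30 ± 0.32) were detected on all 5, and both are shared with the interneuron list. Trp73, Lhx1, Lhx5, Ebf3, Nhlh2, Ndnf and Clstn2 were detected on 0.

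GABAergic interneuron genes were present beside those of pyramidal neurons. Of 17 measured, 10 (58.8%) were detected on all 5, with a median level of 6.43. Slc32a1, the vesicular GABA transporter, averaged 9.09 ± 0.15, and Gad1, which makes GABA, had 7.75, 8.74, 8.21, 8.58 and 8.62. Dlx1, a homeobox factor of ventral forebrain interneurons, had 8.23, 8.81, 8.61, 8.44 and 8.31, Sst, somatostatin, averaged 7.23 ± 0.30 and Npy, neuropeptide Y, 7.95 ± 0.21. WT 1 was the lowest array for Gad1 and Dlx1, and WT 2 the highest. Nr2f2, a nuclear receptor of caudally derived interneurons, had 5.63, 6.93, 6.50, 6.76 and 6.33, in the same pattern. Pvalb, parvalbumin, which is also a gene of fast muscle, had 6.29, 6.52, 5.13, 4.40 and 4.39 and was detected only on WT 1, WT 2 and WT 3, the arrays with high muscle levels. Of the 17 members, 11 were detected on both WT 4 and WT 5. Gad2, Lhx6, Dlx5 and Vip were detected on 0 arrays, each by all of its probes.

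Progenitor and glial lists held both detected and undetected defining genes. Their shares detected on all 5 arrays, between 38.5% and 50%, lay near the 42.4% of all genes and do not set these lists apart. Of 12 intermediate progenitor markers, 5 (41.7%) were detected on all 5, led by Igfbpl1 (11.29 ± 0.10), Rnd2, a gene of migrating neurons (10.66 ± 0.24), and Insm1, a zinc finger factor of basal progenitors (9.11 ± 0.10). Neurog2, a proneural factor, averaged 5.70 ± 0.19, and Eomes, the defining factor of these progenitors, was detected on 0. Of 15 radial glia markers, 6 (40.0%) were detected on all 5, namely Dbi, Slc1a3, Vim, Ttyh1, Tnc and Nes, and 6 on both WT 4 and WT 5. Tnc had 9.84, 8.29, 9.09, 8.06 and 7.72, highest on WT 1 and WT 3 as the bone list was. The part of other tissues in the Tnc level was not tested. Slc1a3, a glial glutamate transporter, averaged 10.19 ± 0.12 and Nes, nestin, 6.16 ± 0.29, while Sox2 was detected on 2 arrays and Pax6, Fabp7 and Hopx on 0. Of 14 astrocyte markers, 7 (50%) were detected on all 5, and 7 on both WT 4 and WT 5. Mt1 had 10.64, 9.05, 9.30, 9.12 and 9.28, highest on WT 1. Gja1, connexin 43, averaged 10.78 ± 0.30, Clu, clusterin, 9.02 ± 0.14, and Aldoc, aldolase C, 7.68 ± 0.22, while Aqp4 was detected on 1 array and Gfap and S100b on 0. Of 13 oligodendrocyte lineage markers, 5 (38.5%) were detected on all 5, with Olig1 at 8.10 ± 0.23. Pdgfra, the receptor of precursors, had 7.16, 5.84, 6.48, 5.84 and 5.78, highest on WT 1 and WT 3 as the bone list was. The part of other tissues in the Pdgfra level was not tested. Mbp, the locus of myelin basic protein, averaged 8.12 ± 0.08, and Mog and Mobp, of mature myelin, were detected on 0. Cldn11, of myelin and of other barrier-forming cells, had 8.03, 4.39, 6.35, 4.54 and 4.27, high on WT 1 and WT 3 with the bone list. On WT 4 and WT 5 alone, 5 of the 13 lineage markers were detected on both.

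Of 10 dividing-cell genes that were detected on all 5 arrays, among 17 measured (58.8%), none exceeded a mean of 7.34. Tyms, thymidylate synthase, averaged 7.34 ± 0.13 and Mcm5 of the replication helicase 7.08 ± 0.26. Top2a, topoisomerase II alpha, had 6.62, 5.18, 5.81, 5.52 and 5.62, highest on WT 1. Of the 17 list genes, 9 were highest on WT 1, and the list averaged 5.69 there, against 5.32 to 5.44 on the other arrays. On WT 4 and WT 5 alone, 10 of the 17 were detected on both. The part of other tissues in these levels was not tested. Ccnb2, Ccna2, Plk1 and Pcna were detected on 0 arrays, although Pcna is used by every dividing cell.

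Vascular and blood genes were detected in part. Of 18 endothelial and mural markers, 10 (55.6%) were detected on all 5, with Egfl7 at 8.64 ± 0.40 and Esam, an endothelial junction protein, at 8.08 ± 0.32. Acta2, smooth muscle actin, had 10.09, 6.72, 8.03, 4.28 and 4.30, and was detected on WT 1, WT 2 and WT 3 only. The same number of markers, 10 of 18, was detected on both WT 4 and WT 5. Of 8 red blood cell genes, 3 (37.5%, against 42.4% of all genes) were detected on all 5 and likewise on WT 4 and WT 5. Hba-a1, an alpha-globin gene, had 13.96, 12.40, 13.00, 11.90 and 12.44, Alas2, of haem synthesis in red cells, averaged 6.05 ± 0.76 and Hbb-b2 5.52 ± 0.45. The list averaged highest on WT 1, at 6.34, and Hbb-bt and the embryonic globin genes Hbb-bh1, Hba-x and Hbb-y were detected on 0 arrays. Of the microglia markers 1 was detected on all 5 arrays, 5 on 1 or 2 and 6 on 0. Of 12, Laptm5, a lysosomal protein of blood and immune cells, was detected on all 5 (8.33%), at 8.66, 5.70, 7.83, 5.88 and 6.01, while Cx3cr1, P2ry12 and Trem2 were among those detected on 0. Tmem119 had 6.37, 4.26, 5.69, 4.20 and 4.28, C1qb, a complement chain, 6.45, 4.28, 4.83, 4.27 and 4.51 and C1qc 6.01, 4.78, 4.86, 4.19 and 4.66, each highest on WT 1, and Aif1 and Fcrls were detected on 2 arrays and 1. Of the 12, 1 was detected on both WT 4 and WT 5. Laptm5 and Tmem119 were high on WT 1 and WT 3, as were the bone and neutrophil lists, and the part of those tissues in the 2 genes was not tested. Of 8 choroid plexus and ependyma markers, 0 were detected on all 5.

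**Figure D3:**
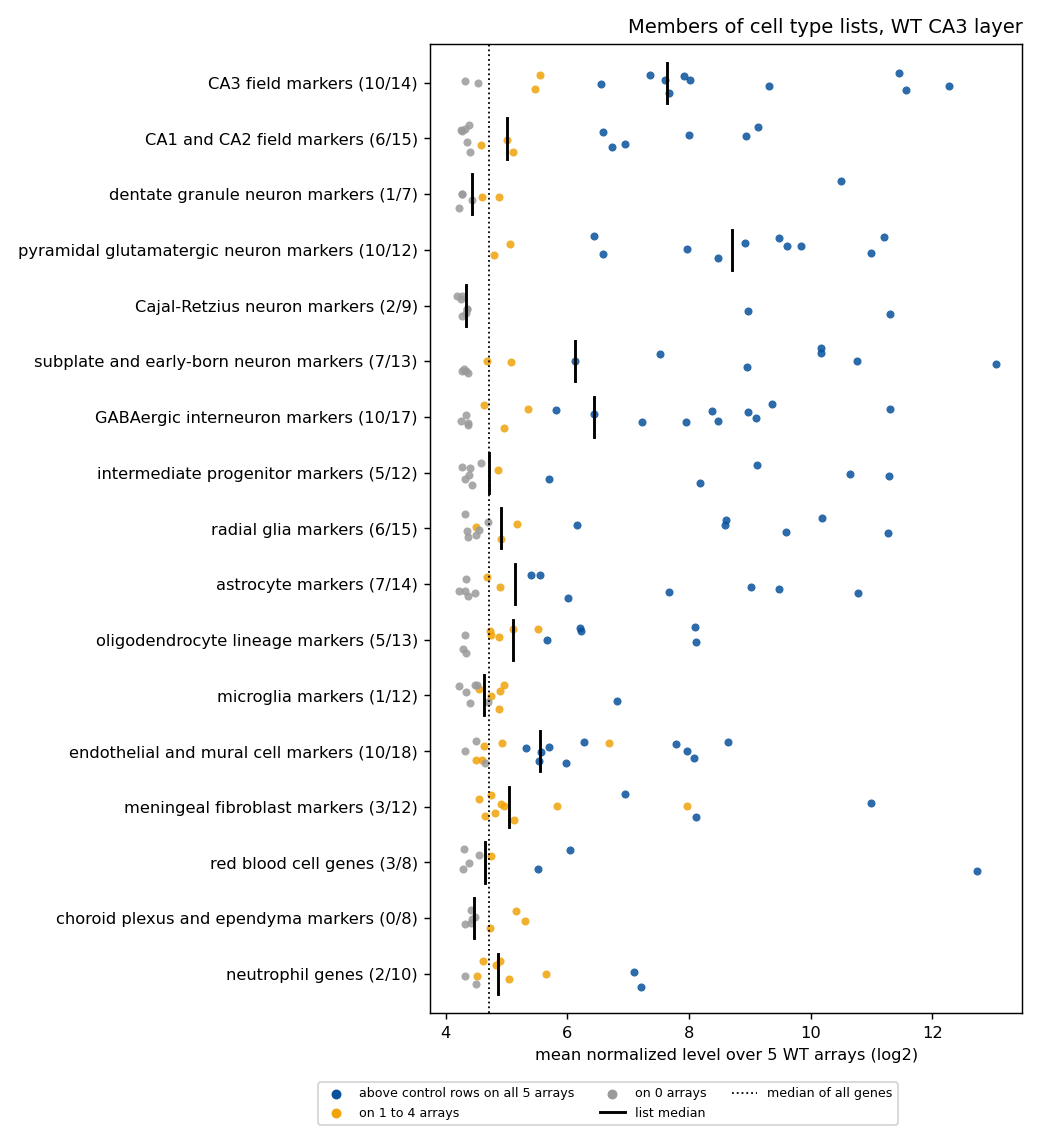
Mean normalized level (log2) over the 5 WT arrays of each measured member of 17 cell type lists, with the number detected on all 5 arrays over the number measured in brackets. Blue points were detected on all 5 arrays, orange on 1 to 4 and grey on 0, a black bar is the list median, and the pyramidal neuron list has the highest median, 8.70.

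Genes that the hippocampus is not known to use were set beside the threshold, in lists also chosen with earlier results of these data known. Of 37 Hox genes, which pattern the hindbrain and trunk, 36 were detected on 0 arrays and Hoxa13 on 3, at 5.15 ± 0.30. Of 14 lens, retina and germ cell genes, 13 were detected on 0 arrays, and Cryba1 on 3. Of 16 midbrain, hindbrain and monoamine neuron genes, 14 were detected on 0. Slc6a4, the serotonin transporter, was detected on all 5 and had 6.96, 6.30, 6.75, 6.76 and 6.88, with WT 2 lowest. This gene is known for a passing expression in glutamatergic neurons of the perinatal rodent brain, CA3 among them. Of 13 liver genes, 11 were detected on 0, and Apoa1, an apolipoprotein, on all 5 at 6.42 ± 0.32. A level at or below the median control on all 5 arrays, the strictest form of no signal, was found for 310 genes (1.87%).

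Genes of migrating and immature neurons had the highest median among the lists of maturation stages. Of 21 measured, 18 (85.7%) were detected on all 5, Tubb3 and Neurod1 on 4 and Sox4 on 3, with a median of 11.29. Dcx, doublecortin, the microtubule-binding protein that the knockout of the series lacks, had 11.89, 11.99, 11.71, 11.93 and 11.97 in these WT arrays. The 5 arrays lay within 0.28 of each other. Dpysl3 and Dpysl5, collapsin response mediator proteins of growing axons, averaged 12.62 ± 0.16 and 12.69 ± 0.08, and Crmp1, of the same family, 12.95 ± 0.14. Tubb3, the neuron-specific beta-tubulin, was dim by its probe, with 4.54, 5.35, 5.51, 5.61 and 5.36, and was detected on 4 arrays. Tubulin genes as a whole were detected on all 5 in 11 of 15 cases (73.3%), and microtubule-associated and stathmin genes in 19 of 21 (90.5%). Within the latter list Dclk1, a relative of doublecortin, averaged 11.08 ± 0.13, Dclk2 10.20 ± 0.11 and Map1b, of growing axons, 11.72 ± 0.11. Pafah1b1, the lissencephaly gene that regulates dynein, averaged 7.53 ± 0.09.

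Of 13 reelin pathway genes, 12 (92.3%) were detected on all 5. Reln, the ligand, had 9.37, 9.09, 8.77, 8.84 and 8.76. Vldlr, a receptor, had 9.56, 9.82, 9.87, 9.90 and 9.93, and Dab1, the adaptor it signals through, had 8.69, 9.10, 8.94, 9.13 and 9.13. The ligand was highest on WT 1, and the receptor and the adaptor were lowest there, with ranges of 0.62, 0.37 and 0.44 for Reln, Vldlr and Dab1. Cdk5r1, the activator of the kinase Cdk5, averaged 12.76 ± 0.06 and Cdk5 itself 9.55 ± 0.08, and Fyn, a kinase that acts on Dab1, was detected on 0 arrays by any of its probes.

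Of 26 axon growth and guidance genes, 17 (65.4%) were detected on all 5. Nrp1, a semaphorin receptor, had 13.00, 13.02, 13.13, 13.27 and 13.13, Robo1, a slit receptor, 11.38, 11.40, 11.56, 11.32 and 11.54, and Gap43, of growth cones, 10.62, 10.69, 10.71, 10.91 and 10.94. Each of these receptors and growth cone genes was bright on all 5 arrays. Plxna2, Epha3 and Unc5c, receptors for semaphorins, ephrins and netrin, averaged 10.63 ± 0.20, 9.91 ± 0.10 and 8.67 ± 0.19, and the ligand Slit2 9.47 ± 0.26. Robo2, Plxna4 and Sema3c were detected on 0.

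Most of the listed synaptic genes were detected at birth, the only age measured. Of 19 presynaptic genes, 16 (84.2%) were detected on all 5 (median 10.45), and of 15 postsynaptic genes 12 (80.0%, median 9.49). Syp, synaptophysin, had 12.80, 12.95, 12.76, 12.89 and 12.78, Syn1, synapsin I, 12.52, 12.63, 12.46, 12.65 and 12.48, and Syt1, the calcium sensor of release, 10.28, 10.50, 10.53, 10.40 and 10.55. The arrays differed little for these vesicle genes. Camk2b, the kinase subunit that is abundant early, averaged 13.63 ± 0.10, Gphn, gephyrin of inhibitory synapses, 10.04 ± 0.04, and Dlg4, the scaffold PSD-95, 8.28 ± 0.20. Snap25, Bsn and Cplx3 on the presynaptic side, and Shank2, Shank3 and Nlgn1 on the postsynaptic side, were detected on 0 arrays.

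Receptor subunits split into detected and undetected members. Of 14 glutamate receptor genes, 7 (50%) were detected on all 5. The AMPA receptor subunits Gria2 and Gria1 averaged 12.21 ± 0.07 and 10.89 ± 0.10, Gria3 5.73 ± 0.12, and Gria4 was detected on 0. The NMDA receptor subunit Grin2b, the main partner in the immature forebrain, had 5.33, 5.35, 4.57, 4.68 and 4.29 and was detected on 2 arrays, while Grin2a, Grin2c and Grin2d were detected on 0. Of 14 GABA and glycine receptor genes, 7 (50%) were detected on all 5. Glra2, the glycine receptor subunit of immature neurons, had 9.70, 9.52, 9.31, 9.30 and 9.49, Gabrb1 averaged 8.88 ± 0.26 and Gabra3 5.42 ± 0.26, while Gabra2 and Gabra5 were detected on 0. Slc12a2, the transporter that loads young neurons with chloride, had 10.14, 10.04, 10.04, 10.31 and 10.35. Slc12a5, the transporter that extrudes chloride in mature neurons, had 4.21, 4.27, 4.29, 4.30 and 4.36 and was detected on 0 arrays by its 1 probe. Since probes differ, the ratio of the 2 transporters cannot be read from these levels. Of 14 potassium and HCN channel genes, 8 (57.1%) were detected on all 5, with Hcn3 at 9.51 ± 0.10 and Kcnc1 at 9.47 ± 0.17.

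Of 17 neurofilament and late maturation genes, 14 (82.4%) were detected on all 5, with a median of 9.95. Map2, of dendrites, averaged 11.93 ± 0.12, Thy1 11.12 ± 0.23, Ina, alpha-internexin, which precedes the neurofilament triplet in development, 10.31 ± 0.12, and Nefm, the medium neurofilament chain, 6.56 ± 0.26. Nefh, the heavy chain, was detected on 3 arrays at 4.94 ± 0.19, and Nefl, the light chain, on 0 by its 1 probe. Of 16 immediate early genes, 7 (43.8%) were detected on all 5, near the 42.4% of all genes. Among them were Homer1 (10.26 ± 0.13), Bdnf (9.07 ± 0.26) and Egr1, which had 7.76, 6.64, 7.63, 7.38 and 7.81. Fos, Fosb, Nr4a1 and Egr2 were detected on 0.

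**Figure D4:**
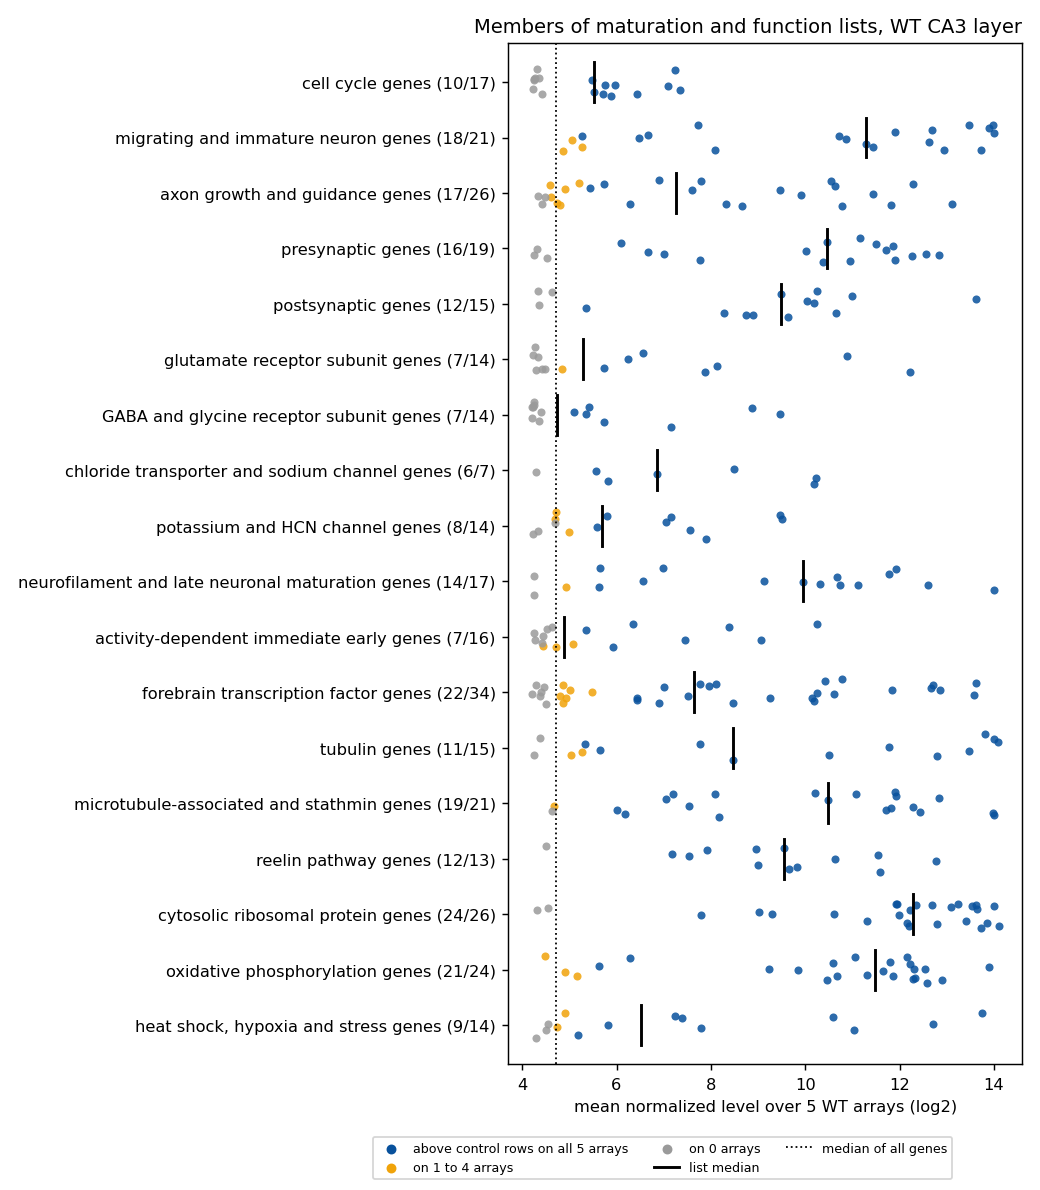
Mean normalized level (log2) over the 5 WT arrays of each measured member of 18 maturation and function lists, drawn as in the plot of cell type lists. The immature neuron list (median 11.29), the ribosomal list (12.29) and the oxidative phosphorylation list (11.48) lie far to the right of the median of all genes (4.71, dotted).

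Of 34 forebrain transcription factor genes, 22 (64.7%) were detected on all 5, and 24 on both WT 4 and WT 5. The brightest was Nfix, a nuclear factor I gene required for hippocampal development, with 13.30, 13.63, 13.79, 13.68 and 13.68, lowest on WT 1. Tcf4, a bHLH partner of proneural factors, had 13.63, 13.46, 13.54, 13.65 and 13.62, and Zbtb18, a repressor needed for cortical and hippocampal development, 12.56, 12.77, 12.55, 12.70 and 12.76. Lmo4, Klf7, Nfib, Ldb1, Bcl11a and Myt1l followed with means between 10.42 and 12.86. Nr2f1, a nuclear receptor that patterns cortex and hippocampus, had 9.65, 10.43, 10.21, 10.40 and 10.55, lowest on WT 1. Lhx2, needed for hippocampal identity, averaged 7.01 ± 0.35, while Emx2, Lef1 and Nfia were detected on 0 arrays by any of their probes. Prox1 and Neurod6 were detected on 2.

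For most genes the 5 arrays differed little. Over the 7032 genes detected on all 5, the median SD was 0.15 on the log2 scale, a factor of 1.11, and 82.7% had an SD under 0.25. The SD fell with level, with a median of 0.23 for genes between 4 and 6 and of 0.09 for genes between 12 and 15. The distribution of signals that the normalization shares between arrays limits differences at the top. Genes above the median level with the smallest SD were Dhodh, an enzyme of pyrimidine synthesis, at 7.80 ± 0.01, Tmem59 at 9.45 ± 0.01 and Dctn3, a dynactin subunit, at 11.72 ± 0.01. On WT 4 and WT 5 alone the median SD was 0.09, but SDs of 2 arrays tend to be smaller than SDs of 5. The median absolute difference between WT 4 and WT 5 over these genes was 0.1307. For the other pairs of arrays it was between 0.1344 (WT 2 and WT 4) and 0.1983 (WT 1 and WT 5). At the other end, 126 of the 131 genes with an SD over 1 were highest on WT 1, 2 on WT 2 and 3 on WT 3. In 73 of the 131 WT 4 and WT 5 were both lower than each of the other arrays. Neither pattern was counted over all genes detected on at least 1 array, so these counts describe only genes picked for their spread. On WT 4 and WT 5 alone, where each SD rests on 2 arrays, 3 genes had an SD over 1. Without WT 1 the genes with an SD over 1 numbered 62. The widest were muscle genes, with Myl1 first (SD 3.71), and bone and matrix genes, with Col1a1 (SD 3.46) and Mmp13, a collagenase of cartilage and bone, which had 10.34, 4.22, 9.63, 4.17 and 4.32. Outside the cell type and other-tissue lists the widest also held Tpm2 and Mybpc1 of muscle and Mmp2, Serpinf1, Lox and Mgp of matrix. The first principal component of the detected genes held 55.8% of the variance and ran between 22.50 on WT 1 and -12.70 on WT 5. A single array stood apart from the other 4 by Dixon's criterion (95% critical value 0.71) for 598 of 9086 genes (6.58%), most often WT 1, high for 161 and low for 104. Of the 9086 genes, 937 were detected on exactly 1 array, where the choice favours a single high array. The share is therefore a description and was not tested against chance.

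**Figure D5:**
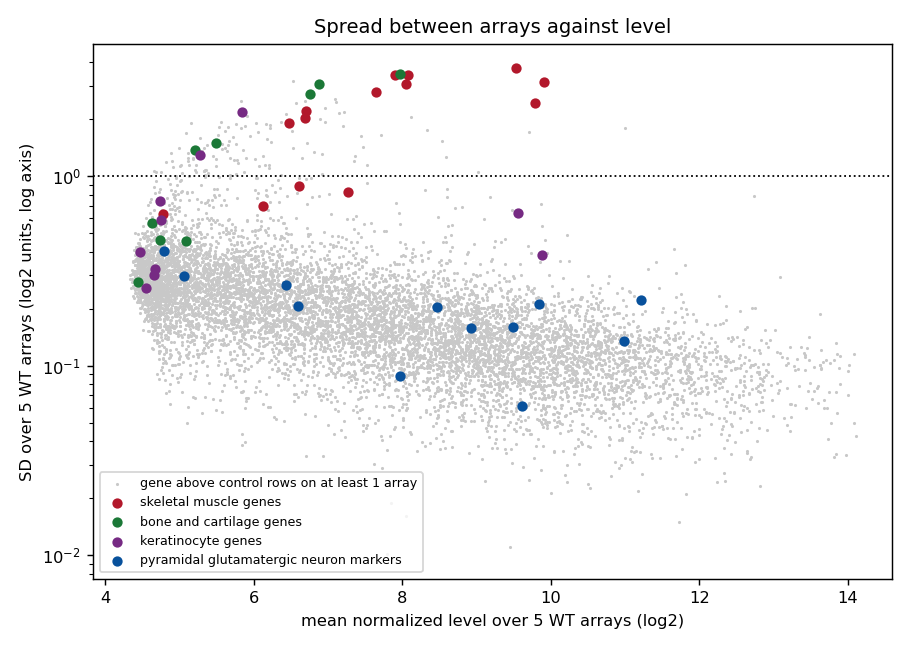
SD over the 5 WT arrays (log2 units, log axis) against mean normalized level (log2) for the 9086 genes detected on at least 1 array, with 4 lists in colour. Pyramidal neuron markers lie within the grey cloud, at or below 0.40, and 10 muscle genes lie above the dotted line at an SD of 1.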

How the data were processed

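Total RNA of laser-dissected tissue was measured on 15 Illumina bead arrays, of which the 5 WT arrays were used. The deposited log2 table holds 26821 entries, of which 25697 carry a probe. Its name calls the log2 values normalized, but the values deposited by the authors differ in median between arrays and show no sign of background subtraction, so they were treated as neither background-corrected nor normalized between arrays. A deposited series table repeats the log2 values, equal after rounding to 7 decimals. A deposited table of scores holds, on the WT arrays, the log2 value centred on the array's median and scaled by its SD, and was used only for the order of genes. The submitters' processing notes name limma. Its role and version, the bead summary and the annotation build are not given in the sources used here.

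Of the 1124 entries without a probe, 6 lay more than 0.5 above the median control and were set aside, and 1118 served as negative controls. They were taken as such for the lack of a probe and a low signal, and every detection call rests on that choice. Signals were background-corrected and quantile-normalized over the 5 WT arrays with neqc of limma 3.58.1 (robust, offset 16) in R 4.3.3, with no test between groups. The detection p-value is the fraction of negative controls that were at least as bright as the probe, with 1 added above and below the line. The platform annotation gave 1 symbol to 23978 probes, several to 0 and none to 1719, and 23962 were matched to RefSeq by gene ID. The steps were tested on simulated data.

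Genes could be named if they were among the 25 highest, members of 42 gene lists, among the 20 widest (also outside the cell type and other-tissue lists), the 10 steadiest, the 15 brightest listed transcription factors or the 10 brightest genes detected on 1 array, and the text names a part of these. Lists and rules were chosen with earlier results of these data known, so no count is independent support. List genes that no probe names were not analysed here. The series speaks of 5 WT hippocampi and 1 RNA per brain, and beyond replicate numbers the labels do not tell the animals apart, so SDs measure the spread between these samples. The number of arrays limits the precision. Alternatives were the detection threshold, the control entries, the background correction and normalization, the offset, the probe rule, the authors' scores, and leaving out arrays. List means without 1 member shared with another tissue were added after seeing the data.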

Additional observations from a re-analysis of the deposited data

Results flagged for a closer look

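A single array stood apart from the other 4 by Dixon's criterion, which chance meets in about 1 of 20 groups, in 5 of 116 results. It did so too for 10 genes named because they were detected on 1 array, where the choice favours that outcome and the values are a description. In 4 cases it was the mean of a gene list. The GABAergic interneuron list was high on WT 2 (7.03, against 6.68 to 6.76 on the other arrays). Without Pvalb, which fast muscle also uses, the mean was 7.07 on WT 2, against 6.76 to 6.90, and the gap over the range was 0.53, under the critical value of 0.71. The red blood cell list was high on WT 1 (6.34, against 5.60 to 5.77), also without Hba-a1 (5.25, against 4.70 to 4.75). The migrating and immature neuron list was low on WT 1 (10.03, against 10.15 to 10.18), and the liver list was high on WT 3 (4.84, against 4.39 to 4.51).

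The other 11 were single genes. Ttr, transthyretin, a gene of choroid plexus and liver, was the liver list member behind that value, at 8.58 on WT 3 and between 4.25 and 4.41 elsewhere. Without it the liver list was 4.52 on WT 3, and WT 1 was the array apart, at 4.40 against 4.51 to 4.52. Dcpp1, of salivary gland secretions, was also high on WT 3, at 10.22, and its next value was 5.33. On WT 1 alone the tissue kallikrein genes Klk1b27 (8.10), Klk1b5 (7.25), Klk1 (6.56) and Klk1b11 (6.22), the keratins of hair root sheath Krt27 (6.93) and Krt71 (6.57), the epithelial keratin Krt7 (6.18), Cyp2f2 (6.65) and the hypothalamic peptide gene Pmch (6.38) were high. Each of these 9 genes lay under 4.53 on the other arrays. Of the entries without a probe, 6 were bright on the WT arrays. No source used here says what they measure, and they entered no result.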

How the results depend on the processing

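Genes detected on all 5 arrays numbered between 6904 and 7524, and genes detected on 0 between 5646 and 8493, over all alternatives including the runs that leave out arrays. Both stayed within 1.5 times the reported counts. The median SD of 0.15 was 0.107 with quantile normalization without background correction, 0.126 with an offset of 50, 0.136 with the mean of the probes of a gene and 0.0947 on WT 4 and WT 5 only, and ran between 0.1357 and 0.1517 with each array left out in turn. The 131 genes with an SD over 1 were 39 with array medians centred and no background correction, 41 with quantile normalization, 65 with an offset of 50 and 3 on WT 4 and WT 5, and ran between 62 (without WT 1) and 150 with an array left out. With array medians centred and no background correction the median SD was 0.1422, close to the reported value. What made the SDs or the counts smaller under these alternatives was not tested. SDs of 2 arrays tend to be smaller than SDs of 5, so the median SD on WT 4 and WT 5 is not on a par with the others. Of the 25 highest genes 12 stayed with the mean of the probes of a gene, and between 23 and 25 under the other alternatives, the authors' scores included. The number of list members detected on all arrays moved by over 1.5 times in 2 of 42 lists at a detection p-value under 0.05 (meningeal and bone) and in 2 without WT 4 (bone and Hox), and in 0 lists under the other alternatives. No paired analysis was possible because no groups are compared here. Signals near the controls cannot be told from no signal, and 5 arrays give an SD of limited precision.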

Other observations

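Genes of basic cell work were widely detected. Of 26 measured cytosolic ribosomal protein genes, 24 (92.3%) were detected on all 5 arrays, with a median level of 12.29, and of 24 oxidative phosphorylation genes 21 (87.5%), with a median of 11.48. Cox4i1, a subunit of cytochrome oxidase, averaged 12.27 ± 0.08 and Ndufa4 averaged 12.91 ± 0.05 (SD, n = 5 arrays). Of 14 heat shock, hypoxia and stress genes, 9 (64.3%) were detected on all 5, led by Hspa8 (13.75 ± 0.10) and Ldha, lactate dehydrogenase A (12.72 ± 0.10). Xbp1, a factor of the unfolded protein response, averaged 10.60 ± 0.08, and Hspa1a, an inducible heat shock protein, 5.82 ± 0.23. Hmox1 and Hspb1 were detected on 1 array each, and Atf4 and Bnip3 on 0.

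Genes of other tissues did not all follow the muscle and bone patterns. Krt10 and Lor, both known from the outer layers of skin, were detected on all 5 arrays. Krt10 had levels of 10.31, 9.54, 10.29, 9.64 and 9.62 on WT 1 to WT 5, and Lor had 10.66, 9.15, 9.56, 9.29 and 9.10. Both were highest on WT 1 but stayed bright on WT 4 and WT 5, where Krt14 and Krt5 were not detected. Prtn3, a protease of neutrophil granules, averaged 7.09 ± 0.22 and was lowest on WT 1 (6.71), while Mmp9, of neutrophils and osteoclasts, had 9.42, 5.93, 9.02, 5.83 and 5.82, high on WT 1 and WT 3 with the bone list.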
